A study of Mus musculus with 40 samples.

Results

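The Trbj2 cluster is the second group of joining (J) segments of the mouse T cell receptor beta locus (Trb). It was taken here as the 6 columns TRBJ2-1, TRBJ2-2, TRBJ2-3, TRBJ2-4, TRBJ2-5 and TRBJ2-7 of the Trb count tables, named below by their mouse gene symbols (Trbj2-1 and so on), out of 11 J segments listed there and 56 J segments in the repertoire tables of all 3 loci of the series. Every V segment row was kept. The study deleted EACBE, a binding site of the chromatin protein CTCF at the enhancer Ea of the T cell receptor alpha locus, and its title asks what the site does in Tcra rearrangement. Trb lies on another chromosome and does not hold the deleted site. Thymocytes came from the thymus of C57BL/6 mice aged 4 to 8 weeks that were EACBE+/+ (wild type) or EACBE-/-, with no treatment named for these libraries, and RNA was copied by 5′ RACE, a method that reads receptor transcripts from the constant region without V-specific primers. Each genotype had 2 Trb libraries. The labels do not say whether these came from separate mice, so the p-values measure the spread between libraries, which may be technical. The tables hold receptor segments alone, so neither the cell type nor the genotype could be checked against other genes.

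A beta chain gene is assembled in immature thymocytes, first by joining a D segment to a J segment and then by joining a V segment to the DJ product. Trb carries a tandem pair of D-J-C blocks: Trbd1 lies before the Trbj1 segments and Trbc1, and Trbd2 lies before the Trbj2 segments and Trbc2. Trbd1 can join to either J cluster. Trbd2 lies downstream of Trbj1 and normally joins to Trbj2 alone, and an allele whose first join used Trbj1 can be rearranged again to Trbj2. The J segment supplies the end of the third complementarity-determining region, which contacts antigen, and the conserved stretch that leads into the constant region.

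RefSeq places the cluster (coordinates of GRCm38.p6, the assembly behind mm10) on chromosome 6 between Trbd2 (41542163 to 41542176) and Trbc2 (41546730 to 41548181). Trbj2-1 (gene 100125255) spans 41542754 to 41542803, Trbj2-2 spans 41542957 to 41543007 and Trbj2-3 spans 41543223 to 41543271. Trbj2-4 spans 41543362 to 41543410, Trbj2-5 spans 41543453 to 41543501 and Trbj2-7 spans 41543810 to 41543856. Each is a single coding J segment of 47 to 51 bases. Trbj2-6, annotated between Trbj2-5 and Trbj2-7 as a pseudogene, was not analysed here. The first and the last member start 577 and 1633 bases after the end of Trbd2.

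Depth differed by replicate number more than by genotype. Wild-type tables held 11412 and 418135 counts in replicates 1 and 2, and EACBE-/- tables held 20678 and 443589. Of these, Trbj2 segments received 7772 and 296873 in wild type against 13969 and 303809 in EACBE-/-. All 132 pairs of a listed V with a Trbj2 segment had at least 1 count in each replicate 1 table, as did all 126 in each replicate 2 table. The median count per such pair was 50.5 and 99 in the replicate 1 tables, and 2147.5 and 2195.5 in replicate 2, so values of single pairs in replicate 1 carry the larger counting error. Trbv31, a V segment downstream of the cluster, is a row of the replicate 1 tables alone. It holds 4.85% of counts in the wild-type table and 4.26% in the EACBE-/- table.

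The libraries also grouped by replicate number in how Trbj2 counts were split among the 6 segments. The distance between 2 libraries (the sum of absolute differences in percentage points, divided by 2) was 1.28 points between the replicate 1 libraries of the 2 genotypes and 1.17 points between the replicate 2 libraries. Between the 2 wild-type libraries it was 4.76 points and between the 2 EACBE-/- libraries 3.45. Libraries of opposite genotype with the same number were therefore closer than libraries of 1 genotype, and the spread between replicates given below includes this difference. What a replicate number marks is not said in the labels. Differences within a replicate number are given beside the genotype differences of shares.

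Trbj2 segments took most of the counts of the 11 listed J segments in both genotypes. All shares of Trb counts here are of these 11, 5 of Trbj1 and 6 of Trbj2. A J segment that is not listed enters no total. The cluster held 68.1% and 71.0% of counts in wild-type replicates 1 and 2 (95% Wilson intervals 67.2 to 69.0% and 70.9 to 71.1%), and 67.6% and 68.5% in EACBE-/- (66.9 to 68.2% and 68.4 to 68.6%). The means were 69.6% ± 2.05 in wild type and 68.0% ± 0.660 in EACBE-/- (SD, n = 2 each). Intervals cover counting error only, and in RNA of whole thymocyte populations fewer cells using a segment and less RNA per such cell cannot be told apart. Wild-type replicate 1 lay below EACBE-/- replicate 2, so the genotypes overlapped. The overlap depended on Trbv31. Over the 21 V segments listed in all 4 tables the shares were 68.50% and 71.0% in wild type, against 67.7% and 68.49% in EACBE-/-. The difference was then -1.66 points, at the smallest possible p of the permutation test given next. Wild-type replicate 1 and EACBE-/- replicate 2 were nearly equal there, closer than the width of either Wilson interval above. This is therefore not read as a separation of the genotypes. Over all listed V segments, the difference of -1.53 points (EACBE-/- minus wild type) was smaller than the spread between the wild-type libraries. It had p = 0.667 in a two-sided exact permutation test, which for 2 against 2 libraries cannot go below 0.333. Within replicate 1 the difference was -0.549 points and within replicate 2 it was -2.51, and without wild-type replicate 2 it was -0.0819. With every V segment weighted equally it was -2.10 points, again without overlap.

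Per segment, Trbj2 members held more counts than listed members of the other cluster. The clusters lie before different constant regions, Trbc1 and Trbc2, and RACE started from the constant region. Whether both were recovered alike was not tested, so use and recovery cannot be told apart here or in the cluster shares above. An average Trbj2 segment took 11.5% of counts and an average listed Trbj1 segment 6.24% (means of the 4 libraries), and the Trbj2 average was the higher in all 4. Not every member was above every Trbj1 segment. Trbj2-7 ranked first of the 11 listed J segments in every library, and Trbj2-2 ranked eighth in every library. Trbj1-1, at 10.8% and 9.74% in wild type, against 10.8% and 10.5% in EACBE-/-, exceeded Trbj2-4 in 3 of 4 libraries and Trbj2-3 in EACBE-/- replicate 2.

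The highest and the lowest member differed by more than the genotypes differed for any member. Trbj2-7, the segment nearest the constant region, took 14.9% (replicate 1) and 18.6% (replicate 2) of wild-type counts, against 15.3% and 17.4% in EACBE-/-. Both replicate 2 libraries lay above both replicate 1 libraries for this segment. Trbj2-1, the first of the array, took 12.1% and 13.0% in wild type, against 11.9% and 12.6% in EACBE-/-. It too was higher in replicate 2 of either genotype. Trbj2-5 took 12.3% and 12.6% in wild type, with 12.3% and 12.1% in EACBE-/-, the most even of the 6 over libraries, with an SD of 0.213 points over the 4.

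Trbj2-3, in the middle of the array, took 11.7% and 10.2% of wild-type counts, against 10.8% and 10.2% in EACBE-/-, with wild-type replicate 1 the highest. Trbj2-4 took 10.4% and 10.6% in wild type, against 10.3% and 10.04% in EACBE-/-. It was the member whose genotypes did not overlap, by a margin of 0.1 points in replicate 1. Trbj2-2 took 6.69% and 6.06% in wild type, with 6.85% and 6.12% in EACBE-/-, the lowest of the cluster in all 4 libraries and higher in replicate 1 of either genotype.

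**Figure D1:**
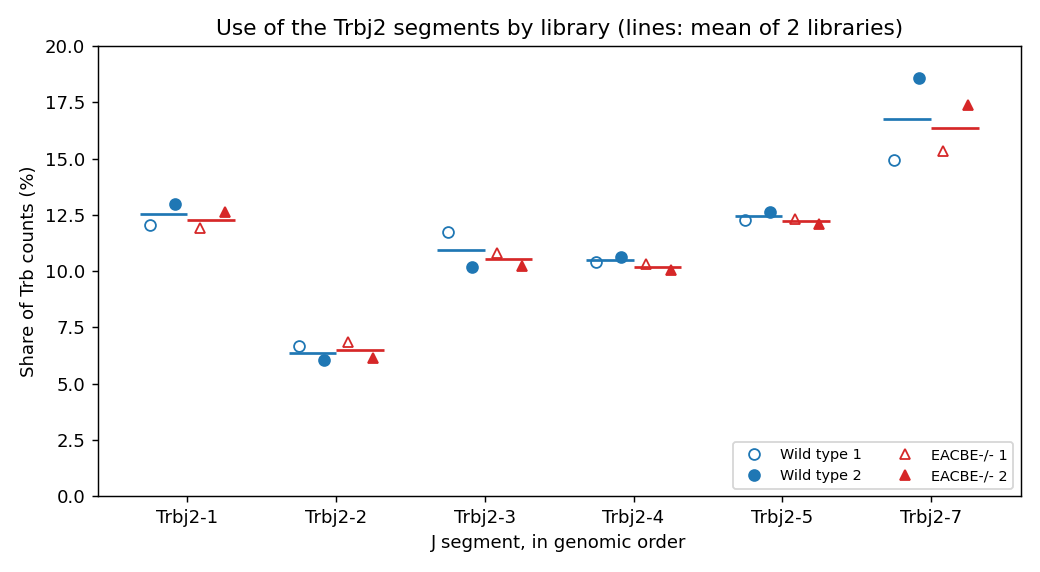
Share of all Trb counts (percent, vertical axis) taken by each of the 6 Trbj2 segments in genomic order, 1 point per library (circles wild type, triangles EACBE-/-, open replicate 1, filled replicate 2), with lines at the mean of 2 libraries. Trbj2-7 lies at 14.9 to 18.6% and Trbj2-2 at 6.06 to 6.85%, and for Trbj2-7 the filled symbols of both genotypes lie above the open ones.

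As shares of Trbj2 counts, the order of the members by their mean over the 4 libraries was Trbj2-7 (24.0%), Trbj2-1 (18.0%), Trbj2-5 (17.9%), Trbj2-3 (15.6%), Trbj2-4 (15.0%) and Trbj2-2 (9.36%). The steps below Trbj2-7, Trbj2-5 and Trbj2-4 in this order held in all 4 libraries with no overlap of the ranges. Trbj2-7 exceeded Trbj2-1 by 6.03 points ± 1.69 (SD of the difference over 4 libraries), Trbj2-5 exceeded Trbj2-3 by 2.30 ± 1.11, and Trbj2-4 exceeded Trbj2-2 by 5.67 ± 0.558. The other neighbours did not separate. Trbj2-1 and Trbj2-5 differed by 0.0903 ± 0.637 points and held this order in 2 of 4 libraries, and Trbj2-3 and Trbj2-4 differed by 0.589 ± 1.07 points, in this order in 3 of 4.

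Use did not run in 1 direction along the array. The second segment, 780 bases from Trbd2, was the lowest, between Trbj2-1 at 577 bases and Trbj2-3 at 1046 bases, and the last segment was the highest. This is a description over 6 positions of 1 locus.

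**Figure D2:**
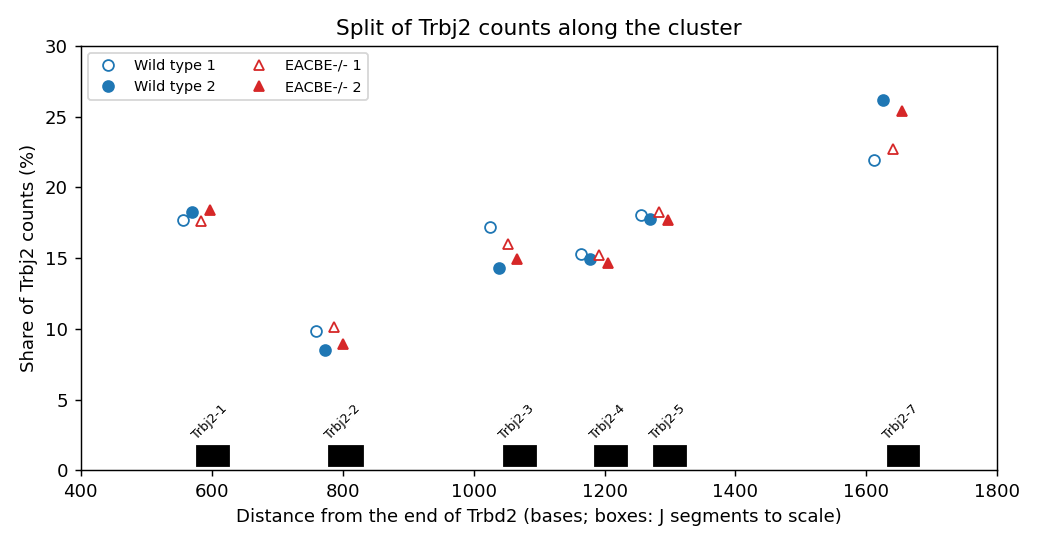
Share of Trbj2 counts (percent, vertical axis) of each segment in each library, against the distance of the segment's start from the end of Trbd2 in bases (horizontal axis, boxes drawn to scale, points of 1 segment set slightly apart). The mean over 4 libraries falls from 18.0% at Trbj2-1 to 9.36% at Trbj2-2 and reaches 24.0% at Trbj2-7, with the replicate 2 libraries above 25% there and the replicate 1 libraries below 23%.

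The split of Trbj2 counts among members was then compared between genotypes. For Trbj2-7 it was 21.9% and 26.2% in wild type, against 22.7% and 25.4% in EACBE-/-, and the means of 24.0% ± 2.98 and 24.0% ± 1.89 (SD, n = 2) differed by -0.00621 points. Trbj2-2 differed by 0.359 points, at 9.83% and 8.53% in wild type, with 10.1% and 8.94% in EACBE-/-, and was the higher in EACBE-/- within both replicate numbers, by 0.307 and 0.412 points. Trbj2-3 differed by -0.303 points, with -1.19 in replicate 1 and 0.588 in replicate 2. The genotypes overlapped for all 6 members, and each difference was smaller than the larger of the 2 SDs between replicates. The smallest exact permutation p over the 6 was 0.667. Leaving out 1 library turned the sign for each of the 6, so no direction is read from these differences.

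Across all 11 J segments, edgeR's quasi-likelihood test of EACBE-/- against wild type called 0 (0% of those tested, at an adjusted p under 0.05), and therefore 0 of 6 Trbj2 members. At an unadjusted p under 0.05 the count was 1 of 11 (9.09%), the Trbj1-5 segment, and 0 of the members. DESeq2 also called 0, with 0 at an unadjusted p under 0.05. Of the 6 members, 1 had a positive and 5 a negative log2 change, with a median of -0.03 against -0.00329 over all 11. In DESeq2, where the median over all 11 was -0.05, the count of negative members was 6 of 6.

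The log2 changes of the members were small beside their standard errors. Trbj2-3 had a log2 change of -0.05 (SE 0.10), Trbj2-4 one of -0.05 (SE 0.07) and Trbj2-7 one of -0.04 (SE 0.13). Trbj2-1 and Trbj2-5 each had one of -0.03 (SE 0.07 and 0.06), and Trbj2-2 had one of 0.03 (SE 0.09). The adjusted p was 0.858 for each of the 6 in edgeR. The signs of Trbj2-1, Trbj2-2, Trbj2-3 and Trbj2-7 turned when 1 library was left out, and that of Trbj2-2 also in DESeq2 (-0.02). Genotypes did not overlap for 1 of the 6 members, beside 27.3% of all J segments tested. A p above the threshold does not show that the genotypes use these segments alike.

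**Figure D3:**
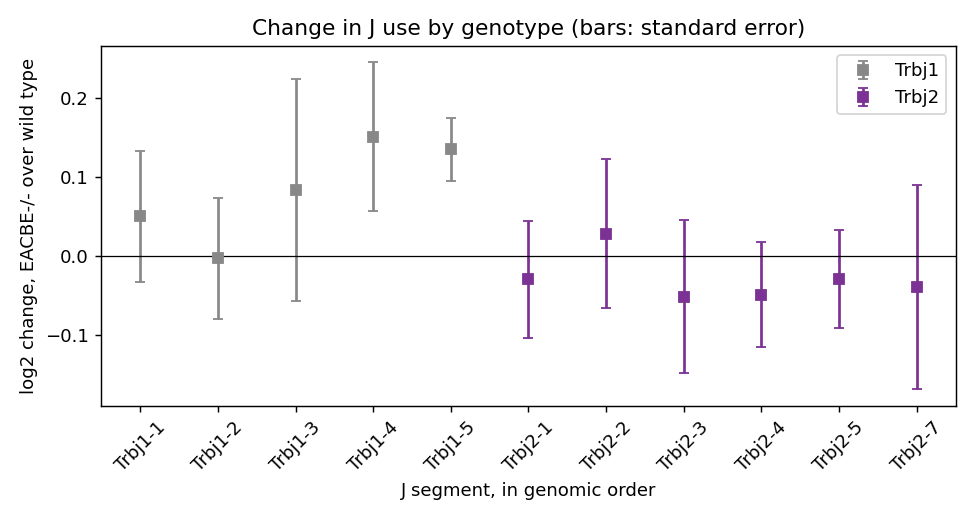
log2 change in share of Trb counts, EACBE-/- over wild type (vertical axis), for the 11 J segments in genomic order, with bars of 1 standard error from edgeR (grey Trbj1, purple Trbj2). The 6 Trbj2 segments lie between -0.05 and 0.03, each with a bar that crosses 0.

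The 5 Trbj1 segments, the other Trb J segments listed, had 0 calls in this edgeR fit as well, with 4 positive and 1 negative log2 change and a median of 0.08. With replicate number added to the fit as a block, 2 of them were called, Trbj1-4 and Trbj1-5. Shares have a fixed total, so the Trbj1 and Trbj2 differences are not separate measurements.

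The V partners of the cluster were described next. The V segments most often joined to Trbj2 were Trbv5, Trbv13-2, Trbv13-1, Trbv15 and Trbv12-1, which together made up 41.3% and 42.4% of Trbj2 counts in wild type, against 39.1% and 43.3% in EACBE-/-. Trbv5 took 8.49% and 10.4% of Trbj2 counts in wild type, with 9.54% and 10.3% in EACBE-/-. Trbv13-2 took 8.74% and 10.3% in wild type, against 8.08% and 10.1% in EACBE-/-. Both V segments were higher in replicate 2 of either genotype, as were Trbv13-1 (mean over 4 libraries 8.00%) and Trbv15 (7.43%). Replicate 1 totals include Trbv31, at 4.30% of Trbj2 counts in wild type and 4.06% in EACBE-/-, and replicate 2 totals do not. Shares of V segments in replicates 1 and 2 therefore have unlike totals, which matters for small steps such as Trbv13-1 in wild type (7.89% and 8.32%). Trbv12-1 took 9.03% and 5.50% in wild type, against 7.56% and 6.35% in EACBE-/-, so that it led in wild-type replicate 1 and was lower in both replicate 2 libraries. Of the Trbj1 segments, those whose distribution over the 21 V segments listed in all 4 tables lay closest to that of summed Trbj2 were Trbj1-4, at 5.72 points, and Trbj1-3, at 6.79 points (the distance defined above, between means over the 4 libraries). The members themselves lay 3.14 points (Trbj2-3) to 6.25 points (Trbj2-5) from their own sum. These profiles share libraries and depth, and each member is part of the sum it is set against.

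Every V segment listed in all 4 tables joined Trbj2 in more than 50% of its counts, in each library. The Trbj2 share within a V segment ran from 63.5 to 88.2% in wild-type replicate 1, 65.6 to 80.3% in wild-type replicate 2, 61.1 to 77.8% in EACBE-/- replicate 1 and 62.5 to 77.4% in EACBE-/- replicate 2. Whether a V segment's ratio of Trbj2 to Trbj1 counts departed from that of the table was tested within libraries with edgeR. Of 21 V segments, 9 departed at an adjusted p under 0.05 (42.9%), 4 of them toward Trbj2 (19.0%) and 5 toward Trbj1 (23.8%). In all 4 libraries, each of the 9 lay on the side of the call, though some values were close to the table. In wild-type replicate 1 the log2 ratio was -0.0182 for Trbv29, -0.0236 for Trbv20 and 0.0459 for Trbv14. In wild-type replicate 2 it was 0.0225 for Trbv12-2. The calls were fitted to these same libraries, so this is not separate support. Trbv3, Trbv4, Trbv13-1 and Trbv13-2 also lay on 1 side in all 4 libraries and were not called.

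Trbv17 (chromosome 6, 41163092 to 41163556) was the V segment with the strongest lean toward Trbj2 among those called. Trbj2 took 81.5% and 80.3% of its counts in wild type, with 77.8% and 77.4% in EACBE-/-. Its log2 ratio was 0.74 above that of the table (SE 0.06, adjusted p = 1.63e-14 in edgeR), and it was the call that passed whichever library was left out. Trbv30 (41281376 to 41281990) had 88.2% and 77.9% in wild type, against 75.9% and 76.5% in EACBE-/-, a log2 ratio of 0.58 (SE 0.17, adjusted p = 0.00617 in edgeR). Its 88.2% rests on 30 Trbj2 counts of wild-type replicate 1, and the call was lost without either EACBE-/- library and with TMM factors. Without wild-type replicate 2 the ratio was 1.18.

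Trbv14 and Trbv12-2 leaned the same way, by 0.31 and 0.15 on the log2 scale. Trbv14 had Trbj2 shares of 69.2% and 75.9% in wild type, with 75.7% and 72.0% in EACBE-/-, and lost its call without wild-type replicate 2, where the ratio was 0.18. Trbv12-2 had 74.0% and 71.3% in wild type, against 72.5% and 70.3% in EACBE-/-, and lost its call in each of the 4 fits that left out a library, with ratios of 0.10 to 0.28. Both also lost their calls with TMM factors.

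Toward Trbj1 leaned Trbv20 (log2 ratio -0.32), Trbv26 (-0.31), Trbv29 (-0.24), Trbv13-3 (-0.17) and Trbv19 (-0.17). Trbv26 (41227525 to 41227913) had Trbj2 shares of 65.2% and 66.3% in wild type, with 62.8% and 63.2% in EACBE-/-. Trbv20 (41188273 to 41188977) had 68.1% and 66.0% in wild type and 62.5% in each EACBE-/- library. For both, every wild-type library lay above every EACBE-/- library, while the calls were lost without wild-type replicate 2, where the ratio of Trbv20 was -0.20. Trbv29 lost its call in 3 of the fits that left out a library, with a ratio of -0.13 without wild-type replicate 2, and with TMM factors, and Trbv13-3 and Trbv19 in all 4 such fits. With TMM factors the 9 calls became 5, those of Trbv17, Trbv20, Trbv26, Trbv13-3 and Trbv19.

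Trbv31 (41557693 to 41558371) lies beyond Trbc2, on the far side of the cluster from the other V segments. Trbj2 took 60.4% of its 553 counts in wild-type replicate 1 (95% Wilson interval 56.3 to 64.4%) and 64.4% of its 880 counts in EACBE-/- replicate 1 (61.2 to 67.5%). The wild-type value was below those of all 21 other V segments in that library, while the EACBE-/- value was above those of Trbv24 (61.1%), Trbv20 (62.5%), Trbv26 (62.8%), Trbv13-3 (63.3%) and Trbv13-1 (64.3%) in its library. It has 1 library per genotype, so it entered no test.

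**Figure D4:**
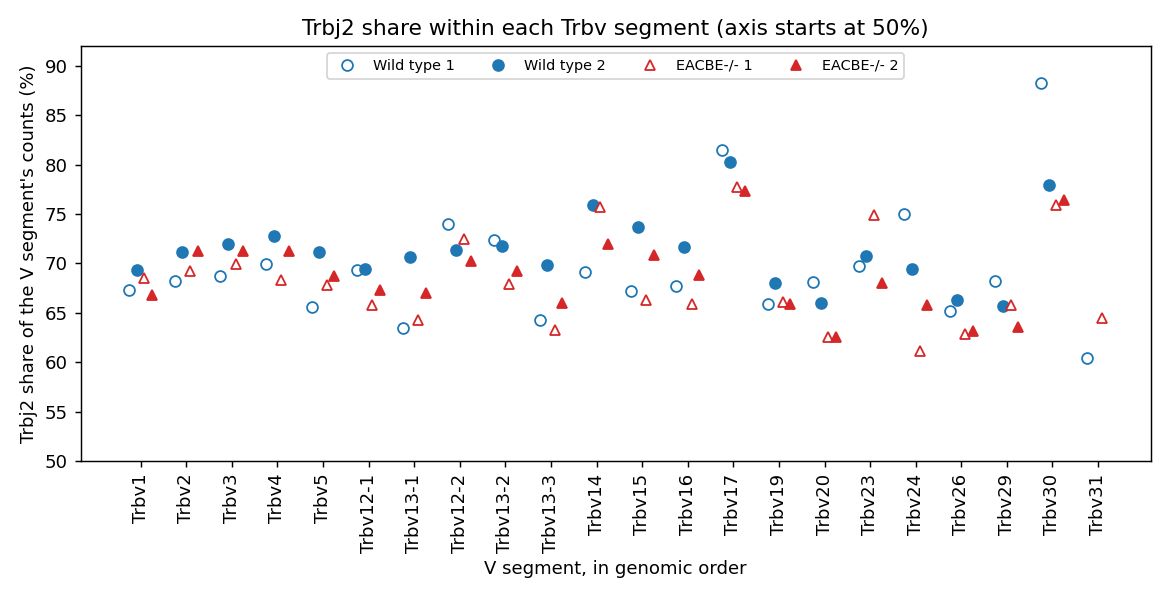
Trbj2 share of the counts of each V segment (percent, vertical axis, starting at 50%), with V segments in genomic order and 1 point per library (circles wild type, triangles EACBE-/-, open replicate 1, filled replicate 2). Trbv17 lies at 77.4 to 81.5% in all 4 libraries, Trbv26 at 62.8 to 66.3%, and Trbv31 has points for replicate 1 alone.

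By genotype, 13 of the 21 V segments had a lower Trbj2 share in EACBE-/- within both replicate numbers and 1 had a higher one. Within replicate 1 the lower ones were 13 of 21, and within replicate 2 they were 20. Trbv31, listed in replicate 1 alone, was higher in EACBE-/- by 4.03 points. All V segments come from the same 4 libraries, so they are not replicates of the genotype. In 7 of the 21, both wild-type libraries lay above both EACBE-/- libraries, which is 33.3%, and in 0 the reverse. The Trbj2 share of the whole table, given above, was also lower in EACBE-/- within both replicate numbers. Relative to the table, the genotype term of the within-library fit called 0 of 21 V segments in edgeR (0%), with 0 at an unadjusted p under 0.05. In the same comparison of single V-J pairs, edgeR called 0 of 231 pairs (0%), of which 126 held a Trbj2 segment, with 0 at an unadjusted p under 0.05 and 0 calls in DESeq2.

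Among pairs with Trbj2, 47 had a positive and 79 a negative log2 change, with a median of -0.03 against 0.02 over all 231 pairs. Without wild-type replicate 2 the median of the Trbj2 pairs was 0.01. Genotypes did not overlap for 19 of the 126, beside 21.6% of all pairs tested. The 5 Trbj2 pairs of lowest p had negative log2 changes. Trbv26 with Trbj2-5 had 41 and 1446 counts in wild type and 43 and 1207 in EACBE-/-, a log2 change of -0.50 (SE 0.23, adjusted p = 0.998 in edgeR). Trbv20 with Trbj2-1 had a log2 change of -0.51, Trbv30 with Trbj2-7 one of -0.57, Trbv30 with Trbj2-3 one of -0.63 and Trbv26 with Trbj2-4 one of -0.37, all at the same adjusted p in edgeR. None of these 5 passed the test. The Trbv30 pairs had 6 to 8 counts in the replicate 1 libraries. Without EACBE-/- replicate 2 the log2 changes were -0.75 for Trbv26 with Trbj2-5, -0.89 for Trbv20 with Trbj2-1, -1.36 for Trbv30 with Trbj2-7 and -0.33 for Trbv30 with Trbj2-3. The last was -1.40 without wild-type replicate 2, and that of Trbv20 with Trbj2-1 was -0.32 without EACBE-/- replicate 1.

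Which member a V segment joined was not the same for all V segments. For each of the 6 members, its counts were set against those of the other 5 within each V segment and library, and the departure of a V segment from the table was tested with edgeR over all 126 pairs. This test was added after the pair values were seen. It called 58 of 126 pairs (46.0%), 32 above the table (25.4%) and 26 below (20.6%). Of the 58, 43 had all 4 libraries in the direction of the call. The calls were fitted to these libraries, so this is not separate support. Trbj2-5 was the member with the most calls, 16 of 21, and Trbj2-7 had the fewest, 2 of 21. Each member had a fit of its own, and standard errors differed between them. For Trbv15, for example, it was 0.01 with Trbj2-5 and 0.08 with Trbj2-7. The counts of calls therefore do not rank members by the size of their departures. Shares of the members within a V segment have a fixed total, so calls of 1 V segment are not independent. Without EACBE-/- replicate 2 the count was 6, and without wild-type replicate 2 it was 10, so most calls needed both replicate 2 libraries. Whether their depth or another trait lay behind this was not tested. With either replicate 1 library left out it was 47 to 50.

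The departures that passed whichever library was left out both involved Trbj2-5. In joins of Trbv15 (41141211 to 41141658) with Trbj2, Trbj2-5 took 13.1% and 13.2% in wild type, against 13.4% and 13.5% in EACBE-/-. In joins of Trbv12-1 (41113567 to 41114067) it took 13.7% and 13.1% in wild type, with 12.9% and 13.2% in EACBE-/-. Over all V segments the same member took 17.7 to 18.2%, so both V segments lay well below the table in every library. The log2 departures were -0.49 for Trbv15 (SE 0.01, adjusted p = 2.18e-05 in edgeR) and -0.51 for Trbv12-1 (SE 0.02, adjusted p = 4.02e-05 in edgeR).

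Trbv12-1 and Trbv12-2, members of 1 duplicated family, went opposite ways on the same J segments. Trbv12-2 joined Trbj2-5 in 21.8% and 19.6% of its Trbj2 counts in wild type, against 20.2% and 20.3% in EACBE-/-, a log2 departure of 0.21. Trbj2-1 took 19.9% and 21.8% of the Trbj2 counts of Trbv12-1 in wild type, against 19.2% and 21.4% in EACBE-/- (log2 departure 0.28). For Trbv12-2 the same segment took 14.6% and 15.3% in wild type, against 16.0% and 15.8% in EACBE-/- (log2 departure -0.29, adjusted p = 7.4e-10 in edgeR, a call lost without either replicate 2 library). The calls of Trbv12-2 with Trbj2-5 and of Trbv12-1 with Trbj2-1 were each kept in 2 of the fits that left out a library. The difference between both V segments was not tested itself, and the labels do not say how reads of close copies were assigned. Trbj2-2 was also low with Trbv12-1, at 7.12% and 6.90% in wild type, with 7.20% and 7.24% in EACBE-/- (log2 departure -0.34, lost without EACBE-/- replicate 2), against 8.53 to 10.1% over all V segments.

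Trbv4 had Trbj2-5 in 23.4% and 20.7% of its Trbj2 counts in wild type, against 24.2% and 20.4% in EACBE-/- (log2 departure 0.28), and was low for Trbj2-2 (-0.31), and both calls were lost without either replicate 2 library. Trbv17, which leaned toward the cluster as a whole, was low for Trbj2-4. This segment took 6.27% and 10.8% of its Trbj2 counts in wild type, against 12.8% and 10.9% in EACBE-/- (log2 departure -0.53, SE 0.07, adjusted p = 0.0059 in edgeR), against 14.7 to 15.3% over all V segments. The wild-type replicate 1 value rests on 21 counts, and the call was lost without EACBE-/- replicate 2. Without wild-type replicate 2 the departure was -0.95. Trbv30 had log2 departures of -0.51 for Trbj2-4 and 0.30 for Trbj2-5, and Trbv24 had one of -0.30 for Trbj2-2, which rest on 1 to 11 counts in the replicate 1 libraries. The call of Trbv30 with Trbj2-4 was lost whichever library was left out, at -1.39 without wild-type replicate 2 and -0.92 when that of EACBE-/- was dropped. The call of Trbv24 with Trbj2-2 was lost in all such fits but that without wild-type replicate 1, at -0.07 without wild-type replicate 2. The call of Trbv30 with Trbj2-5 was lost without either replicate 2 library, at 0.46 without that of EACBE-/-.

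**Figure D5:**
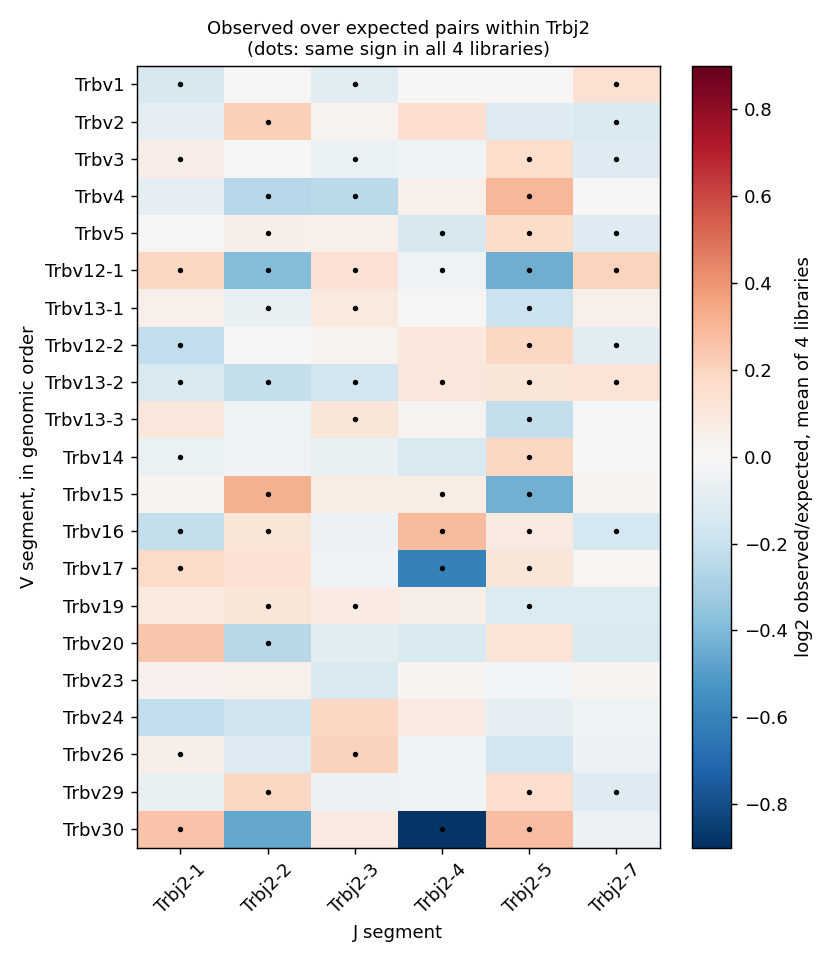
log2 of observed over expected counts (colour, mean of 4 libraries) for each of 21 V segments, in genomic order, with each Trbj2 segment, where the expected count follows from the V and J totals within Trbj2. Dots mark the 61 of 126 pairs with the same sign in all 4 libraries, among them Trbv12-1 and Trbv15 with Trbj2-5 (blue, below expected) and Trbv4 with Trbj2-5 (red, above expected).

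Of the 126 pairs, 61 lay on the same side of their expected count in all 4 libraries, 32 above and 29 below. Trbj2-5 had 15 such pairs of 21 and Trbj2-4 had 7. By genotype, the pattern of member choice gave 0 calls of 126 in edgeR (0%), with 2 (1.59%) at an unadjusted p under 0.05.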

How the data were processed

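Trb receptor transcripts were measured in 4 thymocyte libraries, 2 EACBE+/+ and 2 EACBE-/-, grouped by the labels' titles. Per the labels' protocols, RNA was copied by 5′ RACE with template switching. The deposited tables hold whole-number counts per V-J pair. No source used here names the tool that assigned segments, or says if reads or unique receptors were counted. The submitters' processing notes name mm10, without steps for these tables. If counts are reads, abundant transcripts weigh more and intervals are too narrow. All 33 segments matched RefSeq symbols.

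Counts were summed per J segment or pair and tested with edgeR 4.0.16 (R 4.3.3, glmQLFit and glmQLFTest), with library sizes set to the table totals, without TMM factors, filterByExpr at a minimum count of 10 and total of 15, and Benjamini-Hochberg adjustment over all features of a fit (threshold 0.05). For V bias, 2 columns per library were fitted with library as a term and column totals as library sizes. Fits of V segments and pairs used the 21 V segments listed in all 4 tables. Observed over expected values had 0.5 added. Named were the 6 members, the 5 leading V partners, Trbv31, up to 5 called V segments per direction and the 5 Trbj2 pairs of lowest p, as none passed. For member choice, a test added after the data were seen, the 10 largest calls were named, as were others beside them after their values were seen. Other settings tried were DESeq2 1.42.0, TMM factors, a fit of unfiltered features, fits without each library in turn, a replicate block, V segments listed in all 4 tables, V segments weighted equally and each pair counted once. Fits were also run on simulated counts, whose outcome is not given here, and no conclusion is drawn from it. Shares, intervals and figures came from Python 3.11.15 (numpy 2.4.6, pandas 2.3.3, scipy 1.17.1, matplotlib 3.10.9). The members and lists were chosen with earlier results of these data known.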

Additional observations from a re-analysis of the deposited data

How the results depend on the processing

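For the 11 J segments and the 231 pairs, 0 Trbj2 members and 0 Trbj2 pairs were called under every alternative run: TMM factors, DESeq2, unfiltered features, each library left out, the replicate block and, for J segments, V segments listed in all 4 tables. Over all J segments the replicate block gave 2 calls, Trbj1-4 and Trbj1-5. Deviations from the genotype means of same-numbered libraries correlated at 0.903 over 11 J segments and 0.36 over 231 pairs, but with 2 pairs this does not establish a pairing. Each replicate number has 1 library per genotype, so the replicate block cannot change the cluster share difference of -1.53 points. With libraries left out it ran from -2.98 to -0.0819.

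With libraries left out, log2 changes ran from -0.0761 to 0.0275 for Trbj2-1, -0.0536 to 0.109 for Trbj2-2, -0.159 to 0.0449 for Trbj2-3 and -0.178 to 0.136 for Trbj2-7, and DESeq2 gave -0.0186 for Trbj2-2. Differences in share of Trbj2 counts ran from -0.336 to 0.444 points for Trbj2-1, -0.291 to 1.01 for Trbj2-2, -1.75 to 1.14 for Trbj2-3, -0.455 to 0.136 for Trbj2-4, -0.223 to 0.335 for Trbj2-5 and -2.12 to 2.10 for Trbj2-7. With V segments weighted equally that of Trbj2-4 turned to 0.225. Counting each pair once says nothing on members, since every listed Trbj2 pair had a count: each share of all Trb counts then differed by -0.058 points, a turned sign for Trbj2-2, and the cluster share by -0.348. V bias calls fell from 9 to 5 with TMM factors and ranged from 4 to 8 with libraries left out, and the 58 member-choice calls became 6 to 50. Fits with a library left out have fewer samples, and beyond that the cause was not tested. Replicate 1 depth limits single pairs.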
